A study of Mus musculus with 4 samples.

Results

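The respiratory chain genes examined here encode the nuclear subunits of the 5 enzyme complexes of the inner mitochondrial membrane, their mobile carrier cytochrome c, and assembly factors of complex I whose symbols share the same stem. They were chosen by symbol alone: genes named Nduf followed by a, b, c, s or v, the genes Sdha to Sdhd, those starting with Uqcr, Cyc1, Cycs, those starting with Cox and a digit from 4 to 8, and those starting with Atp5. Of the 19938 genes with a probe set of their own, 91 met the rule: 43 were grouped with complex I, 4 with complex II, 9 with complex III, 17 with complex IV and 17 with complex V, and Cycs stood by itself. Each gene was read by its brightest probe set. Cox7c and Ndufb4, whose probe sets carry several symbols, were left out.

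The measurements are log2 expression values from 4 Affymetrix MoGene 1.0 ST arrays of E14 cells, a mouse embryonic stem cell line of inbred 129 background. There were 2 arrays of control cells and 2 of cells in which Kdm2b was knocked down, and the cells of both groups were grown on gelatin with 15% serum and leukemia inhibitory factor at 1000 units/ml, infected with lentivirus at 10 MOI and placed under puromycin (2 µg/ml) after 48 h. What the control vector carried is not known here. Nothing states that the replicates of a group were grown apart, so p-values here reflect the spread of these arrays alone, which may be technical. Kdm2b encodes a histone demethylase that binds unmethylated CpG-rich DNA as part of a variant Polycomb repressive complex 1, and the series, by its title, concerns its part in recruiting that complex to CpG islands of lineage genes.

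The respiratory chain passes electrons from NADH through complex I, or from succinate through complex II, to ubiquinone, then through complex III and cytochrome c to oxygen at complex IV. Complexes I, III and IV pump protons, and complex V, the ATP synthase, uses the gradient to make ATP. Most subunits are encoded in the nucleus and a few in mitochondrial DNA, and the nuclear genes are known for promoters with sites for NRF1, the ETS factor GABP, YY1 and estrogen-related receptors (ERR). Naive mouse embryonic stem cells are known to respire as well as to use glycolysis.

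None of the 91 respiratory chain genes passed the test after Kdm2b knockdown: 0 were called higher and 0 lower, where a call is an adjusted p under 0.05 (limma, Benjamini-Hochberg adjustment over all 19938 genes). Over all genes tested, 5.00% were called higher and 7.19% lower. The log2 changes of the 91 genes (knockdown minus control) ran from -0.27 to 0.235 with a median of 0.005, beside a median of 0.03 over all genes, and 46 were above 0, 44 below and 1 at 0. Centring every array (subtracting its own median) turned the sign of both, to -0.035 for the 91 genes and -0.01 for all genes. An unadjusted p under 0.05 was reached by 11 of the 91 (12.1%), beside 29.8% of all genes. Control and knockdown arrays were fully separate for 43 of the 91 (47.3%), beside 58.8% of all genes. At the looser threshold of an adjusted p under 0.1 (limma), 5 of the 91 passed, beside 20.8% of all genes: Ndufa11, Ndufa4 and Ndufa8 above 0 and Cox4i1 and Cox6b2 below. With any single array left out, limma called 0 of the 19938 genes, with 3495 to 4215 at an unadjusted p under 0.05. Such a fit has 1 array in a group, and its p-values say nothing on how stable a call is. The log2 change of Kdm2b then ranged from -1.545 to -1.445, and no called gene named here moved by more than 1.5 times. Kdm2b itself, on the same arrays, read 10.74 and 10.64 in control cells and 9.20 and 9.19 in knockdown cells (log2 change -1.495, SE 0.0661, adjusted p = 0.0039, limma).

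The 95% intervals from the fit set limits on how far each gene can have moved between these groups of arrays. Their half-width ran from 0.146 to 0.348 on the log2 scale, with a median of 0.158. For 75 of the 91 genes the whole interval lay within a 1.25-fold change in either direction, and for 90 within a 1.5-fold change. Over all genes the corresponding shares were 56.4% and 89.8%. The exception to the wider bound was Ndufaf6, an assembly factor of complex I, whose interval reached a 1.53-fold lower level. Replicate arrays differed by a median of 0.05 within control and 0.06 within knockdown cells for these genes, and the median size of the group difference was 0.06. A replicate difference is between single arrays and a group difference between means of 2 arrays, so these sizes are not directly comparable. The intervals are for single genes and were not widened for the number of genes. An exact permutation test of 2 arrays against 2 cannot go below p = 0.333, so single genes were tested only through the fit across all genes.

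**Figure D1:**
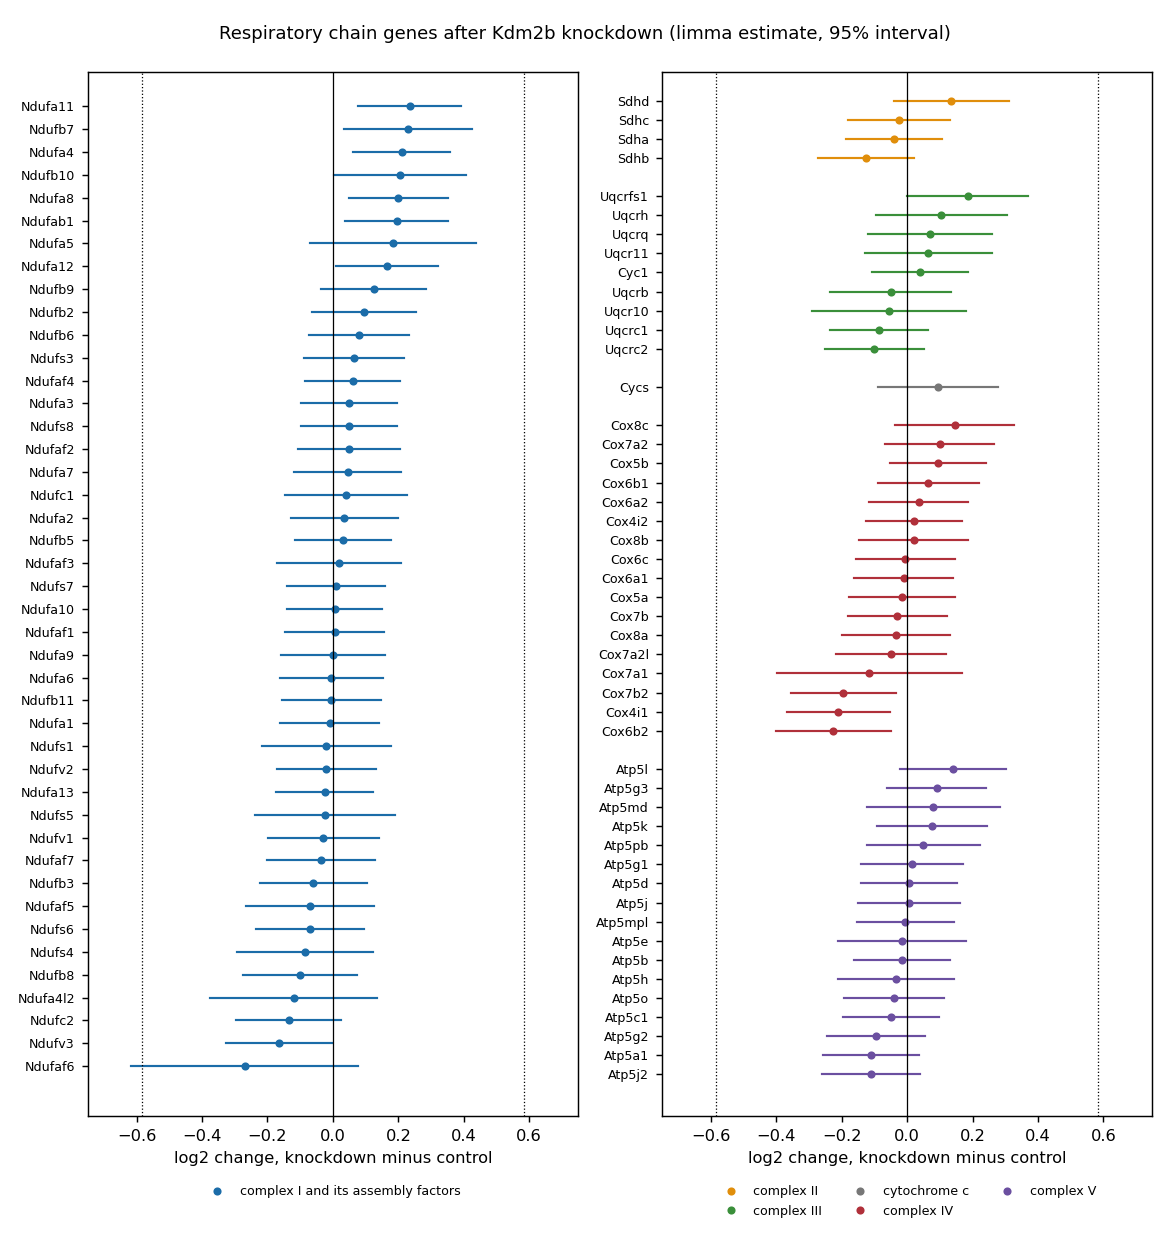
Log2 change of each of the 91 genes (knockdown minus control, x axis) as limma's estimate (point) with its 95% interval (line), sorted by value within each complex; dotted lines mark a 1.5-fold change. The points lie between -0.27 and 0.235, and only the interval of Ndufaf6 crosses a dotted line.

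**Figure D2:**
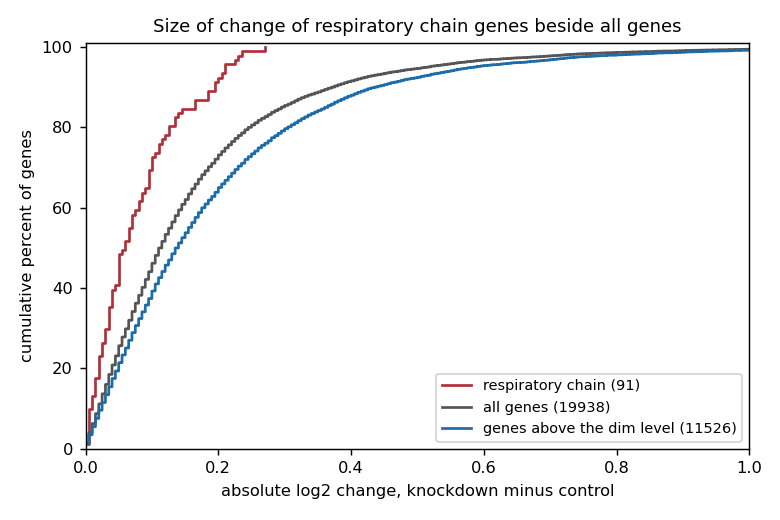
Cumulative percent of genes (y axis) by absolute log2 change (x axis) for the 91 respiratory chain genes, all 19938 genes and the 11526 genes whose mean log2 value was above 8.52. The median size is 0.06 for the respiratory chain genes, 0.115 for all genes and 0.14 for the genes above that level.

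The respiratory chain genes are bright on these arrays, and 87 of the 91 had a mean log2 value above 8.52, the median of all values. The comparison was therefore also made among the 11526 genes above that level, fitted by themselves. There, 1 of the 87 genes was called, Ndufa11 (adjusted p = 0.0479, limma), beside 21.9% of the genes in that fit. The other 4 genes, Ndufaf5, Cox6a2, Cox7b2 and Cox8b, lay below the level.

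Many of these genes have CpG-rich promoters, which bears on a study of a CpG-binding protein. RefSeq promoter windows of assembly GRCm38.p6, from 250 bases before to 50 after the start, matched 74 of the 91 genes by symbol, 5 of them with 2 windows. A window was counted as CpG-rich where it held at least 50% G and C and its ratio of observed to expected CpG was at least 0.6. A gene with several windows counted as CpG-rich if any of them was, and its highest CpG ratio and share of G and C were taken. By this measure 57 of the 74 genes (77.0%) had a CpG-rich window, beside 52.5% of the 15614 tested genes with a window. The median CpG ratio was 0.833 beside 0.658, while the median share of G and C was nearly the same, 58.8% beside 58.3%. The tested genes include dim ones, and windows of bright genes were not compared apart. Of the 8192 tested genes with a CpG-rich window, 6.27% were called higher and 8.87% lower, and of the 57 respiratory chain genes among them 0 were called.

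Exact matches to 4 short motifs were counted on both strands, in any window of a gene. The NRF1 letters GCGCATGCG were found for 11 of the 74 genes (14.9%, beside 2.85% of tested genes with a window), and the ETS letters CCGGAAG for 18 (24.3%, beside 13.6%). The YY1 letters AAGATGGCG were found for 7 (9.46%, beside 2.29%) and the ERR letters TCAAGGTCA for 2 (2.70%, beside 0.346%). The NRF1 motif overlaps its own reverse complement, so neighbouring matches on both strands can be 1 site, and such a match is a description of letters and not of binding. Of 4 complex IV isoforms of restricted tissues with a window, namely Cox6b2, Cox7a1, Cox7b2 and Cox8b, 0 held a match and 0 had a CpG-rich window. Of the 7 widely expressed complex IV subunits with a window, 3 held a match and 6 had a CpG-rich window.

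**Figure D3:**
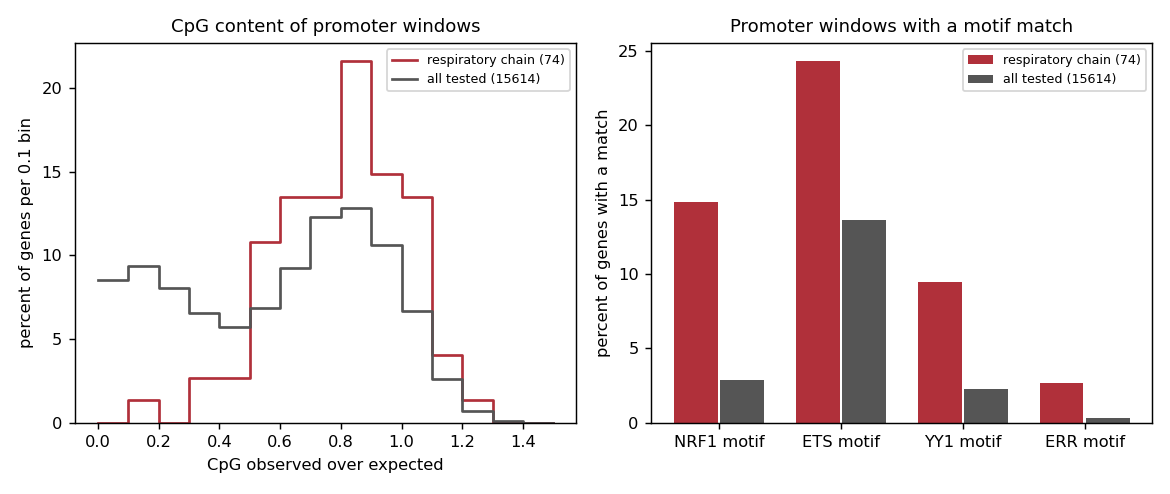
Left, percent of genes (y axis) by ratio of observed to expected CpG in the promoter window (x axis, bins of 0.1) for 74 respiratory chain genes and 15614 tested genes; right, percent of genes with an exact match to each motif. The respiratory chain windows lie mostly at higher ratios (median 0.833 beside 0.658), and each motif was found in a larger percent of them.

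The windows of 4 genes that came closest to the threshold and have an entry are printed to show these features beside the values, as the 150 bases before the start with motif matches in capitals. Ndufa11 (chr17:56717612-56717761, + strand) and Ndufa8 (chr2:36049339-36049488, - strand) carry NRF1 letters, and Ndufa4 (chr6:11907451-11907600, - strand) and Cox6b2 (chr7:4753095-4753244, - strand) carry no match. The sequences are from RefSeq, GRCm38.p6, read 5′ to 3′ on the gene's strand.
Ndufa11: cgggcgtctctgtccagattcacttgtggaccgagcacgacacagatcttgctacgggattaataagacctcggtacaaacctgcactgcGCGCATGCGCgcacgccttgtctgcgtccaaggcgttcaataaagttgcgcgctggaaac
Ndufa8: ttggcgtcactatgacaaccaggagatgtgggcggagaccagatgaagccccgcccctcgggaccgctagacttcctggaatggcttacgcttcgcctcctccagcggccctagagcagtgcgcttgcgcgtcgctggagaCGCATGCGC
Ndufa4: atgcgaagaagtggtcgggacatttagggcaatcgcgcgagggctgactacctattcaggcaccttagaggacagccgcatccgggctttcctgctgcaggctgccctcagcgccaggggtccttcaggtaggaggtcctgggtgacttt
Cox6b2: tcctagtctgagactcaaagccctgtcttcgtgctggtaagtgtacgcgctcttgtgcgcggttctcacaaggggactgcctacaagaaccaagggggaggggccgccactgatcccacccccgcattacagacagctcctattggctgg

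Complex I, the NADH dehydrogenase, is the largest complex, with a matrix arm that takes electrons from NADH and a membrane arm that pumps protons. Of the 43 genes grouped with it, 0 were called, with a median log2 change of 0.01 (-0.03 after centring). An unadjusted p under 0.05 was reached by 8 (18.6%, beside 29.8% of all genes), 7 above 0 and 1 below. The 7 include Ndufa4, which is now placed in complex IV. The 6 conserved core subunits that carry the flavin and most iron-sulfur clusters lay close to 0. Their log2 changes ran from -0.03 (Ndufv1) to 0.065 (Ndufs3), with Ndufs1 at -0.02, Ndufv2 at -0.02, Ndufs7 at 0.01 and Ndufs8 at 0.05, and the sign of Ndufs7 turned after centring and that of Ndufs1 after quantile normalization. The core subunit Ndufv1, which binds NADH, read 12.12 and 12.10 in control cells and 12.02 and 12.14 in knockdown cells. The control values lay between the knockdown values.

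Of the 8 complex I genes with an unadjusted p under 0.05, 4 were among the 18 accessory subunits of the membrane arm and 2 among the 9 of the matrix arm, 22.2% of each, beside 29.8% of all genes. The other 2 were Ndufab1 and Ndufa4. Ndufa11, a membrane-arm subunit, read 12.13 and 12.21 in control and 12.39 and 12.42 in knockdown cells (log2 change 0.235, SE 0.0643, adjusted p = 0.0698, limma). Both knockdown arrays lay above both control arrays, and its second probe set showed a change of 0.20. The call of Ndufa11 depended on the fit, since it passed with dim genes removed and with an intensity trend in the prior (adjusted p = 0.0392, limma). Ndufa8, a membrane-arm subunit with paired cysteines, read 11.77 and 11.72 in control and 11.93 and 11.96 in knockdown cells (log2 change 0.20, SE 0.0617, adjusted p = 0.0922, limma). Ndufb7 read 10.25 and 10.23 in control and 10.56 and 10.38 in knockdown cells, a change of 0.23 (SE 0.0794, adjusted p = 0.119, limma). Ndufb10 read 9.70 and 9.81 against 9.88 and 10.04, a change of 0.205 (SE 0.0819, adjusted p = 0.162, limma). Without knockdown replicate 1 the change of Ndufb7 was 0.14, and without knockdown replicate 2 that of Ndufb10 was 0.125. The groups of arrays did not overlap for either gene, nor for 58.8% of all genes.

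Ndufab1, which encodes the mitochondrial acyl carrier protein and serves fatty acid synthesis as well as complex I, read 11.71 and 11.72 in control and 11.95 and 11.87 in knockdown cells. Its log2 change was 0.195 (SE 0.0638, adjusted p = 0.105, limma), and 0.16 on its second probe set. Ndufa12, an accessory subunit of the matrix arm, read 10.60 and 10.67 against 10.78 and 10.82, a change of 0.165 (adjusted p = 0.151, limma). Ndufv3, a small matrix-arm subunit, was the member of this complex with an unadjusted p under 0.05 on the other side of 0. It read 11.54 and 11.53 in control and 11.32 and 11.42 in knockdown cells (log2 change -0.165, SE 0.0661, adjusted p = 0.163, limma). All 3 had arrays that did not overlap between the groups, as did 58.8% of all genes, and all 3 missed the threshold.

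Ndufa4 was named as a complex I subunit and is now placed in complex IV. It read 11.63 and 11.65 in control and 11.84 and 11.86 in knockdown cells, a log2 change of 0.21 (SE 0.0599, adjusted p = 0.0768, limma). Its replicates stood 0.02 apart in each group, and the difference between groups was larger than both replicate gaps, yet it did not pass after adjustment. A group difference above both replicate gaps was found for 37 of the 91 respiratory chain genes. Ndufa4 was picked by its p-value on these same arrays, so its close replicates add no support for a change. Its paralogue Ndufa4l2, known as a hypoxia-responsive gene, read 8.51 and 8.80 against 8.56 and 8.51 (log2 change -0.12, adjusted p = 0.486, limma), with overlapping groups. The 7 assembly factors of this family ran from -0.27 (Ndufaf6) to 0.06 (Ndufaf4), and 0 had an unadjusted p under 0.05. Ndufaf6 had the widest spread, with 9.15 and 9.50 in control and 8.92 and 9.19 in knockdown cells. Leaving out control replicate 1 moved its change to -0.445, and leaving out control replicate 2 to -0.095.

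**Figure D4:**
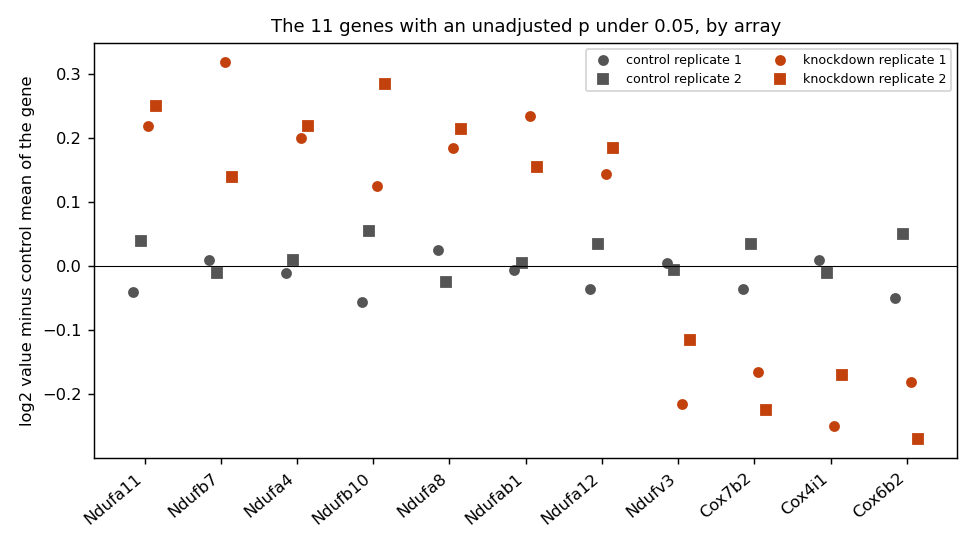
Log2 value on each array minus the control mean of that gene (y axis) for the 11 genes with an unadjusted p under 0.05 (x axis); grey, control; orange, knockdown; circles and squares, replicates 1 and 2. The groups do not overlap for any of the 11, and the same holds for 58.8% of all genes. The 11 were picked by p-value on these same arrays, so this separation adds no support for a change. After adjustment over all genes 0 of the 11 passed.

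Complex II, the succinate dehydrogenase that is also an enzyme of the citric acid cycle, has 4 subunits, all nuclear, and all were measured. Their log2 changes were -0.04 for the flavoprotein Sdha, -0.125 for the iron-sulfur subunit Sdhb, -0.025 for the membrane anchor Sdhc and 0.135 for the other anchor Sdhd, with a median of -0.0325 (-0.0725 after centring). Sdhb read 11.86 on both control arrays and 11.72 and 11.75 in knockdown cells (SE 0.06, adjusted p = 0.227, limma). Sdhd read 11.62 and 11.54 in control and 11.77 and 11.66 in knockdown cells (SE 0.0713, adjusted p = 0.265, limma). The arrays of each of these subunits did not overlap between groups, nor did those of 58.8% of all genes. Knockdown arrays of Sdhb and Sdhd lay on opposite sides of control, and neither gene passed the threshold.

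In complex III, the cytochrome bc1 complex, 0 of 9 genes were called and 0 had an unadjusted p under 0.05. The median was 0.04, or 0 after centring, and it was -0.025 without control replicate 1. Uqcrfs1, the Rieske iron-sulfur protein, read 10.28 and 10.43 in control and 10.57 and 10.51 in knockdown cells (log2 change 0.185, SE 0.0757, adjusted p = 0.17, limma). Its groups did not overlap, as for 58.8% of all genes, and its change was 0.11 without control replicate 1. The core proteins Uqcrc1 and Uqcrc2, which hold the complex together, had changes of -0.085 and -0.10, and cytochrome c1, encoded by Cyc1, one of 0.04. The 5 small subunits ran from -0.055 (Uqcr10) to 0.105 (Uqcrh), each with overlapping groups. Cycs, the mobile carrier, had a change of 0.095 (SE 0.0748, adjusted p = 0.441, limma). That change was 0.025 without control replicate 1, 0.165 without control replicate 2 and 0.06 without knockdown replicate 2. The other probe sets of Cycs showed 0.155 and, on a dim one with a mean log2 value of 7.59, 0.36, so its probe sets differed in size of change.

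Complex IV, cytochrome c oxidase, reduces oxygen, and several of its nuclear subunits exist as pairs of a widely expressed and a tissue-restricted isoform. Of 17 genes 0 were called, with a median of -0.01 (-0.05 after centring). An unadjusted p under 0.05 was reached by 3 (17.6%, beside 29.8% of all genes), all below 0. Ndufa4, now placed in this complex but counted here with complex I, also had an unadjusted p under 0.05. Its change was above 0, at 0.21, so the single direction depends on that placement. Cox4i1, the widely expressed form of a regulatory subunit, read 12.20 and 12.18 in control and 11.94 and 12.02 in knockdown cells (log2 change -0.21, SE 0.064, adjusted p = 0.0893, limma). Cox4i2, its hypoxia-responsive counterpart, read 9.52 and 9.54 in control and 9.55 on both knockdown arrays (0.02, and -0.02 after centring). The knockdown arrays of Cox4i1 lay below both control arrays, and those of Cox4i2 lay 0.01 above the nearest control array. Such separation of the groups held for 58.8% of all genes.

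Cox6b2, known as a testis form, read 10.35 and 10.45 in control and 10.22 and 10.13 in knockdown cells (log2 change -0.225, SE 0.0711, adjusted p = 0.0974, limma). Cox6b1, its widely expressed counterpart, had a change of 0.065 with an interval from -0.0884 to 0.218. Cox7b2, another form known from testis, lay at a low level, with 6.08 and 6.15 against 5.95 and 5.89 (log2 change -0.195, SE 0.0651, adjusted p = 0.11, limma), and Cox7b had a change of -0.03. The groups of arrays did not overlap for Cox6b2 or Cox7b2, nor for 58.8% of all genes. The differences between the members of a pair were not tested.

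The remaining isoforms showed smaller values. Cox6a1 had a log2 change of -0.01 and the heart and muscle form Cox6a2 one of 0.035, with the sign of each changing under another scaling. Cox7a2 had 0.10, the muscle form Cox7a1 -0.115 and Cox7a2l, which joins complexes III and IV into supercomplexes, -0.05. The knockdown arrays of Cox7a1 stood 0.32 apart, at 10.63 and 10.95, around control values of 10.96 and 10.85. Cox8a had -0.035, the muscle form Cox8b 0.02 (-0.02 after centring) and Cox8c, another tissue-restricted isoform, 0.145. Cox8c read 8.68 and 8.83 in control and 8.92 and 8.88 in knockdown cells (adjusted p = 0.254, limma), with no overlap between groups, as for 58.8% of all genes. Of the 7 tissue-restricted isoforms, 4 had changes above 0 and 3 below. Of 8 cardiac and skeletal muscle markers 0 were called.

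Complex V, the ATP synthase, spanned a narrow range. Of 17 genes 0 were called and 0 had an unadjusted p under 0.05, the log2 changes ran from -0.11 to 0.14, and all 17 intervals lay within a 1.25-fold change. The median was -0.005 (-0.045 after centring). The catalytic beta subunit, encoded by Atp5b, read 14.18 on both control arrays and 14.17 and 14.16 in knockdown cells (log2 change -0.015, SE 0.0594, adjusted p = 0.895, limma). The alpha subunit gene Atp5a1 had a change of -0.11 and the central stalk genes Atp5c1, Atp5d and Atp5e changes of -0.05, 0.005 (-0.035 after centring) and -0.015. The 4 peripheral stalk genes ran from -0.04 (Atp5o) to 0.05 (Atp5pb). Atp5l, a membrane subunit, had the highest value, 0.14 (SE 0.0663, adjusted p = 0.222, limma), and its 6 probe sets ranged from 0.09 to 0.14.

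The ring of c subunits that turns with proton flow is made from 3 genes, Atp5g1, Atp5g2 and Atp5g3, which encode the same mature protein behind different import sequences. Atp5g1 read 14 and 13.95 in control and 13.96 and 14.02 in knockdown cells (log2 change 0.015, or -0.025 after centring, SE 0.0635). Atp5g2 read 13.65 and 13.68 against 13.59 and 13.55 (-0.095, SE 0.0611), and Atp5g3 read 13.14 and 13.20 against 13.27 and 13.25 (0.09, SE 0.0621). The groups overlapped for Atp5g1, while both knockdown arrays lay below control for Atp5g2 and above it for Atp5g3. Groups were likewise separate for 58.8% of all genes. None passed, with adjusted p-values of 0.898, 0.35 and 0.382 (limma). Their windows differ in the motifs found, and are shown for that reason: Atp5g1 (chr11:96075632-96075781, - strand) holds no match, Atp5g2 (chr15:102671048-102671197, - strand) holds NRF1 letters and Atp5g3 (chr2:73911327-73911476, - strand) ERR letters, again in capitals in the 150 bases before the start.
Atp5g1: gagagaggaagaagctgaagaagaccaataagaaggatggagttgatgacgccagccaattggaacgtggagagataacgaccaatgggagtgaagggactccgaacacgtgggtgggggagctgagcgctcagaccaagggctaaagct
Atp5g2: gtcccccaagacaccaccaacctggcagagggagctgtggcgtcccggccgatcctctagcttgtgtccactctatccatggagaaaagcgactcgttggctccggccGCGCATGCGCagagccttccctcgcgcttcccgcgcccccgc
Atp5g3: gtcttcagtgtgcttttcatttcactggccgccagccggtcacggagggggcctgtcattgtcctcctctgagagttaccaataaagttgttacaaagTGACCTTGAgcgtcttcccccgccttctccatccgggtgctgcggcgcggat

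Several of these genes have near-identical processed copies in the genome, so array probes may read more than 1 locus. Where the brightest probe set of a gene lies was not determined, and the value printed for a gene such as Ndufa11 or Ndufab1 may come from a copy. Of the 91 genes, 18 had further probe sets, 27 in all. Their log2 changes ran from -0.09 to 0.36, or to 0.20 among the 26 above the level of 8.52, and 1 of the 27 had the opposite sign to the probe set used.

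Genes that act beside the nuclear subunits were compared in the same fit. Of 13 subunits encoded in mitochondrial DNA, 2 were measured: COX2, a catalytic subunit of complex IV, had a log2 change of -0.005 (interval -0.165 to 0.155), and ND3, a core subunit of complex I, one of 0.015 (interval -0.134 to 0.164), the signs of both differing between scalings. Of 14 complex I assembly factors, a list that includes the 7 named above, 1 was called higher and 1 lower, with a median of -0.015. Acad9 rose, from 10.66 and 10.77 in control to 11.16 and 11.12 in knockdown cells (log2 change 0.425, SE 0.0684, adjusted p = 0.0181, limma). Tmem126b, a membrane protein of the same assembly complex as Acad9, fell from 10.53 and 10.45 to 9.97 and 9.83 (-0.59, SE 0.0756, adjusted p = 0.0115, limma). For each the groups of arrays were separate, as for 58.8% of all genes.

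Of 32 measured assembly factors of complexes II to V, 1 was called higher and 1 lower, with a median of 0.055. Cmc2, a twin-cysteine protein of the intermembrane space, rose from 11.09 on both control arrays to 11.33 and 11.43 (0.29, SE 0.0661, adjusted p = 0.0438, limma), and did not pass after centring (0.25, adjusted p = 0.0694, limma). Atpaf1, a chaperone of the ATP synthase beta subunit, fell from 11.58 and 11.49 to 11.01 and 11.24 (-0.41, SE 0.0932, adjusted p = 0.0436, limma). Of 17 citric acid cycle enzymes 0 were called higher and 1 lower, with a median of -0.02. That gene was Idh2, the mitochondrial NADP-dependent isocitrate dehydrogenase, which fell from 12.21 and 12.17 to 11.80 on both knockdown arrays (-0.39, SE 0.0605, adjusted p = 0.0168, limma).

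Of 77 mitochondrial ribosomal protein genes, which serve the translation of the mitochondrially encoded subunits, 3 were called higher and 0 lower, with a median of 0.055. They were Mrps6 (0.59, SE 0.0637), Mrpl14 (0.49, SE 0.108) and Mrps7 (0.345, SE 0.0713). Mrps6 read 10.31 and 10.39 in control and 10.94 on both knockdown arrays. The shares called in all these lists, like that of the respiratory chain genes, are to be read beside the 5.00% and 7.19% of all genes.

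Of 25 regulators of mitochondrial gene expression 0 were called higher and 1 lower, with a median of 0.03. Tefm, an elongation factor of mitochondrial transcription, fell from 10.38 and 10.39 to 10.00 and 10.11 (-0.33, SE 0.0675, adjusted p = 0.0332, limma). The factors whose motifs were searched did not pass. Nrf1 had a log2 change of 0.065, Gabpa of -0.03, Yy1 of 0.13 and Esrrb of -0.165 (adjusted p-values of 0.646, 0.795, 0.21 and 0.163, limma). Esrrb is 1 of 3 estrogen-related receptors measured, and the others lay on the other side of 0, Esrra at 0.20 and Esrrg at 0.17 (adjusted p-values of 0.108 and 0.155, limma). Tfam, which packages mitochondrial DNA and starts its transcription, had 0.025 (-0.015 after centring), and the coactivator Ppargc1a, at a low level near 6.05 in control cells, 0.08.

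**Figure D5:**
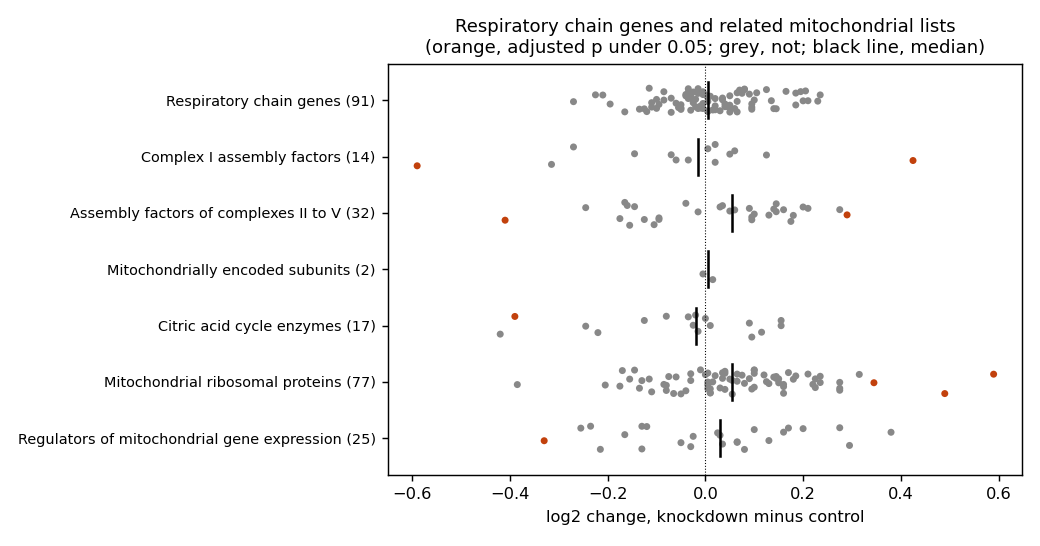
Log2 change (knockdown minus control, x axis) of each gene in the respiratory chain and in 6 related lists (y axis, number of genes in brackets); orange points passed an adjusted p under 0.05, grey points did not, black lines are medians, and the vertical scatter within a row has no meaning. The 91 respiratory chain genes hold 0 orange points, and the orange points of the other lists include Tmem126b at -0.59 and Mrps6 at 0.59.

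The 4 arrays were alike in scale, with medians between 8.49 and 8.55, and replicate arrays correlated at r = 0.9963 and 0.9966 across probe sets. The defining markers of embryonic stem cells were present: of 10 listed, 0 lay below the level of 8.52 and 0 were called, with 5 above 0, 4 below and 1 at 0. They ran from -0.165 (Esrrb) to 0.30 (Klf4, adjusted p = 0.0514, and 0.0376 with dim genes removed, limma), with Pou5f1 at 0.08, Nanog at 0.14 and Sox2 at -0.135. Of 12 markers of primitive endoderm, 4 were called higher (Gata6 at 2.115, Dab2 at 1.12, Col4a1 at 0.535 and Sox17 at 0.53), beside 5.00% of all genes, and 0 lower. The other 8 were not called and ran from 0.005 (Afp, or -0.035 after centring) to 1.525 (Pdgfra, adjusted p = 0.0578, and 0.0494 with dim genes removed, limma). Of the 12, 2 lay below 8.52, and their summed level in log2 was 13.25 and 13.08 in control and 13.77 and 14.24 in knockdown cells. Of 12 fibroblast and feeder markers 1 was called higher (Twist1, 0.425) and 1 lower (Acta2, -0.41), with summed levels of 14.76 and 14.81 against 14.69 and 14.68. These counts, like those of the other marker lists, are to be read beside the 5.00% higher and 7.19% lower of all genes. In such bulk samples fewer cells of a type and less RNA per cell cannot be told apart, and the part of these other cell types in the values of the respiratory chain genes was not tested.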

How the data were processed

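Each of the 4 arrays, 2 per group, has a deposited log2 value for 35557 probe sets. The authors made these log2 values in Affymetrix Expression Console, as the submitters' processing notes say. Its version, background step and scaling between arrays were not stated, and the log2 scale was inferred from the range of 3.12 to 14.74. Probe sets with 1 symbol in the platform annotation (21789) were reduced to the brightest per gene. The groups were fitted in R 4.3.3 by limma 3.58.1 (lmFit, eBayes with its default prior, group as sole covariate, two-sided, Benjamini-Hochberg over the 19938 genes, threshold 0.05). SE and 95% intervals are moderated. The procedure was also run on simulated arrays with independent normal noise, its spread drawn from the prior fitted to these same data. The outcome of that run is not used as support for any result here. The number of arrays limits the precision.

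The genes and lists were chosen with earlier results of these data known. The rule named called genes, isoform groups, complex II, Kdm2b and up to 4 called genes per list. The 11 genes with an unadjusted p under 0.05 and other genes named by role or range were chosen after their values were seen. Subunits were assigned to complexes and arms by hand from their symbols. Alternatives were a replicate block, leaving out each array, quantile normalization, centring, removal of dim genes, other uses of probe sets, other priors and a threshold of 0.1. Same-numbered arrays deviated together with a correlation of 0.0954 across genes, so the numbers were not taken to pair them.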

Additional observations from a re-analysis of the deposited data

How the results depend on the processing

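No respiratory chain gene was called under quantile normalization, centring, both other uses of probe sets or a robust prior. With dim genes removed 1 was called higher, and with an intensity trend in the prior 1, each time Ndufa11. At an adjusted p under 0.1, 3 were called higher and 2 lower. With the replicate number as a block, limma called 0 of 19938 genes (5411 at an unadjusted p under 0.05, 9 of them respiratory chain genes), and Kdm2b had a log2 change of -1.495 with an adjusted p of 0.127. The block left 1 residual degree of freedom, and leaving out any array, which puts 1 array in a group, also left 0 genes called. These p-values say nothing on stability. Centring moved the calls over all genes from 997 higher and 1434 lower to 841 and 1866.

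Centring gave medians of -0.035 for the 91 genes, -0.03 for complex I, -0.0725 for II, -0.05 for IV and -0.045 for V. It turned the sign of Cox4i2 (-0.02), Cox6a2 (-0.005), Cox8b (-0.02), Atp5g1 (-0.025), Ndufs7 (-0.03), Atp5d (-0.035), ND3 (-0.025), Tfam (-0.015) and Afp (-0.035). Quantile normalization turned Cox6a1 (0.01188), Cox6a2 (-0.00625), Cox8b (-0.03625), Ndufs1 (0.0025), COX2 (0.00625) and Afp (-0.0525), and Sox17 was then not called (0.479, adjusted p = 0.0582, limma).

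Leaving out 1 array at a time, medians ranged from 0 to 0.035 for complex I, -0.06 to -0.005 for II, -0.025 to 0.07 for III, -0.025 to 0.015 for IV and -0.02 to 0.03 for V. Gene values that changed sign ranged from -0.03 to 0.01 for Cox6a1, -0.275 to 0.045 for Cox7a1, -0.08 to 0.01 for Cox8a, -0.035 to 0.075 for Cox8b, -0.265 to 0.025 for Ndufa4l2, -0.015 to 0.045 for Atp5g1, -0.065 to 0.015 for Sdhc, -0.18 to 0.07 for Uqcr10, -0.095 to 0.055 for Ndufs1, -0.015 to 0.035 for Ndufs7, -0.09 to 0.03 for Ndufv1, -0.045 to 0.005 for Ndufv2, -0.005 to 0.015 for Atp5d, -0.105 to 0.075 for Atp5e, -0.04 to 0.03 for COX2, -0.005 to 0.035 for ND3, -0.075 to 0.015 for Gabpa, -0.035 to 0.165 for Nrf1, -0.01 to 0.06 for Tfam and -0.05 to 0.06 for Afp. Other named values kept their sign and moved by over 1.5 times: 0.09 to 0.19 for Atp5l, -0.07 to -0.01 for Atp5o, 0.01 to 0.03 for Cox4i2, 0.005 to 0.065 for Cox6a2, 0.035 to 0.095 for Cox6b1, 0.06 to 0.14 for Cox7a2, -0.055 to -0.005 for Cox7b, 0.07 to 0.22 for Cox8c, 0.025 to 0.165 for Cycs, -0.445 to -0.095 for Ndufaf6, 0.125 to 0.285 for Ndufb10, 0.14 to 0.32 for Ndufb7, 0.04 to 0.09 for Ndufs3, 0.045 to 0.115 for Pou5f1, -0.055 to -0.025 for Sdha, 0.08 to 0.19 for Sdhd, 0.11 to 0.26 for Uqcrfs1, 0.905 to 2.145 for Pdgfra and 0.035 to 0.175 for Uqcrh. Values that reached 0 without turning sign ranged from -0.1 to 0 for Cox7a2l and from 0 to 0.1 for Atp5pb. The causes of these shifts were not tested.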

Other observations

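Probe sets that carry several symbols were outside the comparison. Of these, 6 included a symbol that met the rule for respiratory chain genes, and their log2 changes (knockdown minus control) ran from -0.05 to 0.02.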
